A study of Mus musculus with 4 samples.

Results

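Integrin and laminin genes were described on arrays of 4 mouse cell populations. Members were chosen by symbol: integrin genes are those named Itga or Itgb with a number, together with Itgav, Itgal, Itgam, Itgax, Itgae, Itgad and Itga2b, and laminin genes are those named Lama, Lamb or Lamc with a number. Genes of integrin-binding proteins and the integrin-like gene Itgb2l were not counted. Of 37 such genes in the name table, 34 had a probe set, and these were 24 integrin and 10 laminin genes of 18193 genes in all. They were read by 73 probe sets of 45101. The other 3 were not analysed here.

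The populations were iNSC_14F and iNSC_13F, induced neural stem cells made with 14 and 13 factors, NSC, primary-derived neural stem cells, and MEF, mouse embryonic fibroblasts. Each was measured on 1 array of total RNA, so no difference has a replicate check and no p-value or SD is given. Neural stem cells and induced cells grew in N2 medium, a serum-free medium with insulin, transferrin, selenite, progesterone and putrescine, to which EGF, bFGF and laminin were added. The labels do not give the culture of the fibroblasts. The series title names liver cells and B lymphocytes as sources of induced cells, without saying which of them gave each induced sample, and the factors are not named. Genotype, strain and animal age are not given in the labels either. A further label calls every sample embryonic stem cells, which goes against the cell type labels and was not used.

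Integrins are cell surface receptors made of an alpha and a beta chain. The chain pair sets which matrix protein is bound, and the cytoplasmic tails recruit adaptors such as talin and kindlin that link the receptor to actin. Laminins are trimers of an alpha, a beta and a gamma chain and are the main adhesive proteins of basement membranes. In the developing brain the end feet of radial glia rest on a laminin-rich basement membrane through integrins, and neural stem cells are commonly grown on laminin.

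Values are MAS5 signals, a linear intensity per probe set that was scaled to the same trimmed mean on every array. Each gene is represented by its brightest probe set. The floor was a signal of 103.9, the highest of 4 values, each the 95th percentile of 86 odorant, vomeronasal and taste receptor probe sets on 1 array. Where the dimmer array was under the floor, the fold is a lower bound, written "at least". A gene was called where 2 arrays differed at least 4-fold with the brighter above the floor. As a yardstick, 95% of the 9311 genes above the floor on both induced arrays differed between them by less than 2.32-fold. Signals of different probe sets are not on a common scale, so levels are compared between arrays and not between genes. A lower signal from a population can mean fewer cells that express the gene or less RNA per cell, and these cannot be told apart here.

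The labels were checked against markers. Of 10 neural stem cell markers on the array, 8 exceeded the floor on iNSC_14F, 7 on iNSC_13F, 9 on NSC and 4 on MEF, and the summed signals were 51544, 43568, 57536 and 1777. Of 11 fibroblast markers, 3, 4, 1 and 10 were above the floor on the same arrays, and the summed signals were 727, 1071, 816 and 169246. These sums, and those of the other marker lists below, take in signals under the floor. A low sum can thus be background and is no measure of how many such cells were present. The hybridization controls, transcripts added to each sample, were 1.86-fold higher on iNSC_14F, 2.11-fold higher on iNSC_13F and 1.85-fold higher on MEF than on NSC. Scaling to these controls moves each difference of an induced array over NSC down by 0.90 (log2) for iNSC_14F and by 1.07 for iNSC_13F where both arrays are well above the floor. It moved the median of all genes from 0.33 to -0.48 for iNSC_14F and from 0.30 to -0.65 for iNSC_13F over NSC, and from -0.01 to 0.80 for NSC over MEF. The values below are as deposited, and those under this scaling are added where they change a call. Quantile normalization moved the median of all genes to 0.37 for iNSC_14F and 0.36 for iNSC_13F over NSC.

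Of the 34 members, 14 were above the floor on iNSC_14F, 18 on iNSC_13F, 13 on NSC and 20 on MEF. As shares these were 41.2%, 52.9%, 38.2% and 58.8%, against 54.7%, 55.9%, 54.2% and 58.0% of all genes. On at least 1 array 23 members were above the floor, 15 integrins and 8 laminins, and 10 members were above it on all 4. The 11 that were below it everywhere were Itga10, Itgae, Itgal, Itgam, Itgax, Itgb2, Itgb4, Itgb6, Itgb7, Lama1 and Lama3. They include each leukocyte alpha chain with a probe set and Itgb2, the beta chain of leukocytes, whose highest signal was 67.3 on iNSC_14F. Of these alpha chains, Itgax came close to the floor, with a signal of 102.4 on iNSC_13F. Of 9 leukocyte markers on the array, 1 (Laptm5) was above the floor on iNSC_14F, iNSC_13F and MEF, and 0 on NSC.

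**Figure D1:**
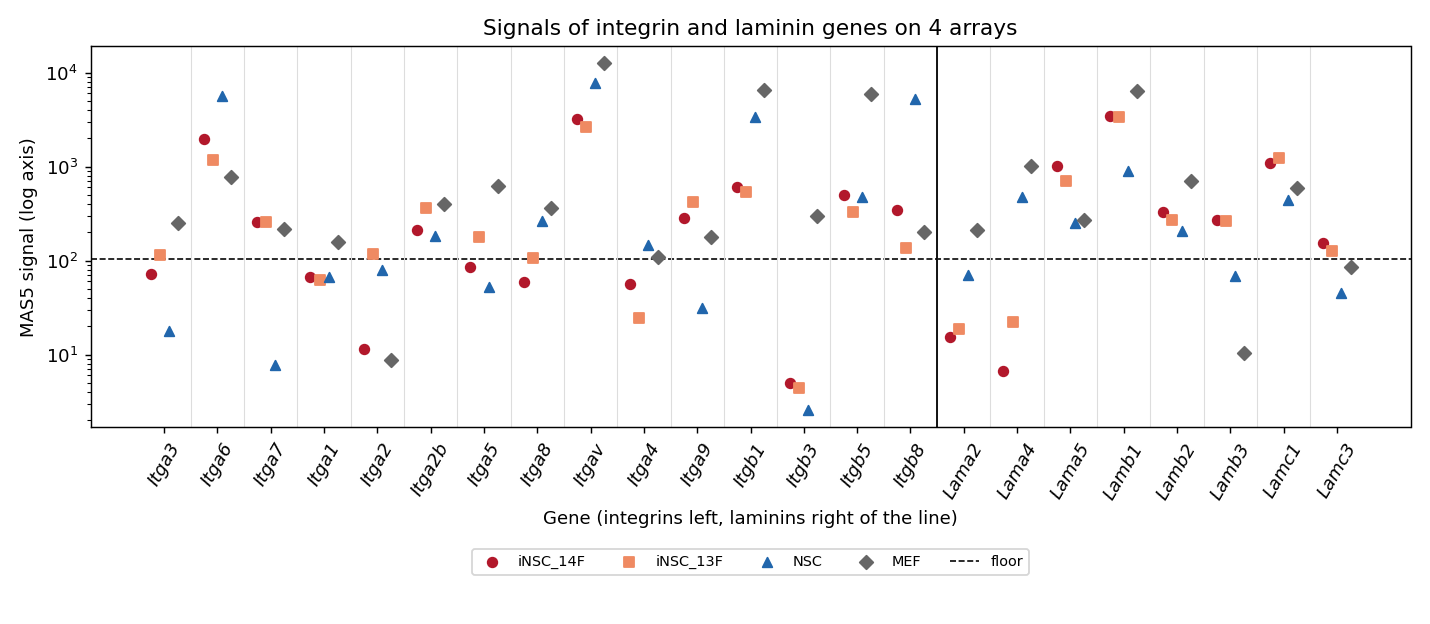
MAS5 signal (log axis) of the 23 members that exceeded the floor somewhere, with 1 point for each array and the floor of 103.9 as a dashed line. Itgb8 and Itga6 stand highest on NSC, Itgb5 and Itgb3 on MEF, and both induced arrays lie below the floor for Lama4.

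Of the beta chain genes with a probe set, 4 (Itgb1, Itgb3, Itgb5 and Itgb8) were above the floor on some array, and 4 were below it on all. Itgb1 encodes the beta chain shared by most integrin receptors for laminin, collagen and fibronectin. Its signal was 606 on iNSC_14F, 541 on iNSC_13F, 3398 on NSC and 6571 on MEF. Both induced arrays were thus below both others, 5.60-fold and 6.28-fold lower than NSC for iNSC_14F and iNSC_13F, and 10.8-fold and 12.1-fold lower than MEF. Itgb1 has 6 probe sets, of which 3 were above the floor on some array. All 3 were lower on the induced arrays than on NSC, by log2 differences between -1.74 and -2.49 for iNSC_14F and between -1.88 and -2.83 for iNSC_13F. The other 3 read below the floor on all 4 arrays, so the median of all 6 gives a log2 difference of only -0.01 for both arrays.

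Itgb8 encodes a beta chain that pairs with the Itgav product alone, is made by radial glia and astrocytes, and activates latent TGF-beta. Its signal was 343 on iNSC_14F, 136 on iNSC_13F, 5175 on NSC and 199 on MEF. NSC thus stood apart, 26.0-fold above MEF, while iNSC_14F was 15.1-fold and iNSC_13F 38.1-fold below NSC. Against MEF the induced arrays lay within 2-fold, 1.72-fold higher for iNSC_14F and 1.47-fold lower for iNSC_13F. Between the induced arrays Itgb8 was 2.52-fold higher in iNSC_14F than in iNSC_13F, which is past the yardstick and the widest gap among members above the floor on both. It is read by 1 probe set.

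Itgb5 and Itgb3 encode beta chains that join the Itgav chain in vitronectin receptors. Itgb5 had signals of 503 on iNSC_14F, 331 on iNSC_13F, 478 on NSC and 5922 on MEF. MEF was the high array, with iNSC_14F 11.8-fold, iNSC_13F 17.9-fold and NSC 12.4-fold lower. All 4 probe sets of Itgb5 went the same way in these 3 comparisons. Itgb3 had signals of 4.95 on iNSC_14F, 4.38 on iNSC_13F, 2.57 on NSC and 300 on MEF. MEF alone was above the floor, and each other array was at least 2.89-fold lower. Its other probe set was below the floor on all arrays, and would stand for Itgb3 if probe sets were chosen before flooring.

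The promoters of Itgb1 and Itgb8 are shown because these genes were called lower than NSC on both induced arrays and lie in the table used. Each window runs from 250 bases before to 50 after the annotated start, from RefSeq, build GRCm38.p6. Itgb1 is at chr8:128685404-128685703, plus strand, and Itgb8 at chr12:119238227-119238526, minus strand. Sequences are in lower case, 5′ to 3′ on the strand of the gene, with capitals for matches on either strand to the TATA box (TATAAA), to the CCAAT box (CCAAT), to the GC box (GGGCGG) or to the AP-1 element (TGANTCA).
Itgb1: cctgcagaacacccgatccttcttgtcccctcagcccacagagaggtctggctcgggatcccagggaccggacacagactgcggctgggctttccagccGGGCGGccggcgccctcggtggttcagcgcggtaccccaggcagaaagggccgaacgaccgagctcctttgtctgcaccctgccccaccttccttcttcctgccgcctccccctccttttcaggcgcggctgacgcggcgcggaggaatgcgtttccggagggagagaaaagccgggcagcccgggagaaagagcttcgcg
Itgb8: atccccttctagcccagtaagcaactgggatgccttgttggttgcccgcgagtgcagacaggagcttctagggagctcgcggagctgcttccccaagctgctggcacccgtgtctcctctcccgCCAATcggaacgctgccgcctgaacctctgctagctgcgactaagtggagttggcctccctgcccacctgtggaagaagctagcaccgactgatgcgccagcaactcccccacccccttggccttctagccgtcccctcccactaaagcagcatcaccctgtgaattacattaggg
The Itgb1 window held 1 GGGCGG match, 27 CpG dinucleotides and 67.3% G or C. That of Itgb8 held 1 CCAAT match, 13 CpG and 60.7% G or C. The medians over all 32851 windows were 7 CpG and 52.7%. A match to GGGCGG is found in 35.7% of all windows, to CCAAT in 37.4%, to TATAAA in 13.6% and to TGANTCA in 7.81%. No matches overlapped in the windows shown here.

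The laminin-binding alpha chains differed from one another in where they were high. Itga6, whose product pairs with that of Itgb1 in a laminin receptor found on neural stem cells, had signals of 1980 on iNSC_14F, 1170 on iNSC_13F, 5645 on NSC and 773 on MEF. The induced arrays lay below NSC, by 2.85-fold for iNSC_14F and 4.82-fold for iNSC_13F. Against MEF they were 2.56-fold and 1.51-fold higher, and the second of these is within the yardstick. NSC was 7.30-fold above MEF, and both probe sets of Itga6 kept the direction in all 6 pairs. Scaled to hybridization controls, Itga6 was called lower than NSC on iNSC_14F as well, with a log2 difference of -2.41 in place of -1.51.

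Itga7, best known for the laminin receptor of muscle, had signals of 257 on iNSC_14F, 259 on iNSC_13F, 7.78 on NSC and 216 on MEF. NSC was the low array, and its bounds were 2.47-fold for iNSC_14F and 2.49-fold for iNSC_13F, both higher than NSC and short of a call. Of 6 muscle markers, 1, 3, 1 and 3 were above the floor on iNSC_14F, iNSC_13F, NSC and MEF, with summed signals of 461, 818, 403 and 3679, and their part in this result was not tested. Itga3, a receptor chain for laminins with the Lama3 or Lama5 chain, had signals of 71.2 on iNSC_14F, 115 on iNSC_13F, 17.8 on NSC and 254 on MEF. MEF was highest, 2.20-fold above iNSC_13F and at least 2.44-fold above iNSC_14F and NSC. Itgb4, the partner of Itga6 in hemidesmosomes, was below the floor on every array.

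The next chains bind ligands with the RGD motif. Itgav partners Itgb1, Itgb3, Itgb5 and Itgb8 and had signals of 3190 on iNSC_14F, 2635 on iNSC_13F, 7652 on NSC and 12558 on MEF. Both induced arrays were the low ones, 2.40-fold and 2.90-fold below NSC and 3.94-fold and 4.76-fold below MEF for iNSC_14F and iNSC_13F. A dimmer probe set gave the same direction against MEF but the opposite against NSC, with signals of 135, 120, 96.3 and 443 on iNSC_14F, iNSC_13F, NSC and MEF. Its NSC signal was under the floor and its induced signals little above it, so the opposite direction is a bound near the floor. With scaling to hybridization controls, the log2 differences of the brighter probe set from NSC were -2.16 and -2.61, past the 4-fold mark on both arrays.

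Itga5, the fibronectin receptor chain, had signals of 86.5 on iNSC_14F, 178 on iNSC_13F, 52.0 on NSC and 617 on MEF. It was highest on MEF, with iNSC_14F and NSC each at least 5.93-fold lower and iNSC_13F 3.46-fold lower. Its other 3 probe sets gave smaller differences, and without probe sets marked _s_at or _x_at the log2 differences of iNSC_14F and of NSC from MEF were both -0.56. Itga8, the receptor chain for nephronectin, had signals of 58.8 on iNSC_14F, 107 on iNSC_13F, 263 on NSC and 364 on MEF. The induced arrays were lowest, at least 2.53-fold below NSC for iNSC_14F and 2.47-fold for iNSC_13F, and with scaling to hybridization controls both log2 differences were -2.23.

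Itga2b, the platelet chain that pairs with Itgb3, had signals of 214 on iNSC_14F, 361 on iNSC_13F, 183 on NSC and 395 on MEF, and no pair of arrays reached the yardstick. Of 5 megakaryocyte markers on the array, Pf4 alone was above the floor on iNSC_14F, iNSC_13F and NSC, and 3 were on MEF. The summed signals of these markers were 481, 955, 247 and 880 in the same order, and their part in the Itga2b signal was not tested.

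Itga9 encodes a chain that joins Itgb1 to bind tenascin-C and osteopontin. Its signal was 285 on iNSC_14F, 422 on iNSC_13F, 31.4 on NSC and 179 on MEF. NSC was the low array, at least 2.74-fold below iNSC_14F and at least 4.06-fold below iNSC_13F. The second of these was called, and its log2 difference of 2.02 was 1.84 with scaling to hybridization controls, where it was no longer called. Against MEF its probe sets disagreed, with 1 of 3 higher in iNSC_14F and 2 of 3 higher in iNSC_13F.

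Other alpha chains lay near the floor. Itga4, a receptor chain for fibronectin and Vcam1, had signals of 56.1 on iNSC_14F, 24.6 on iNSC_13F, 146 on NSC and 110 on MEF. Of the collagen receptor chains, Itga1 reached 159 on MEF and was below the floor on the other arrays, and Itga2 reached 117 on iNSC_13F and was below it elsewhere. These 2 genes are next to each other on chromosome 13, and each can be given only bounds, none of which reached 2-fold. Itgam and Itgax, which are also neighbours, on chromosome 7, were below the floor on all arrays.

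**Figure D2:**
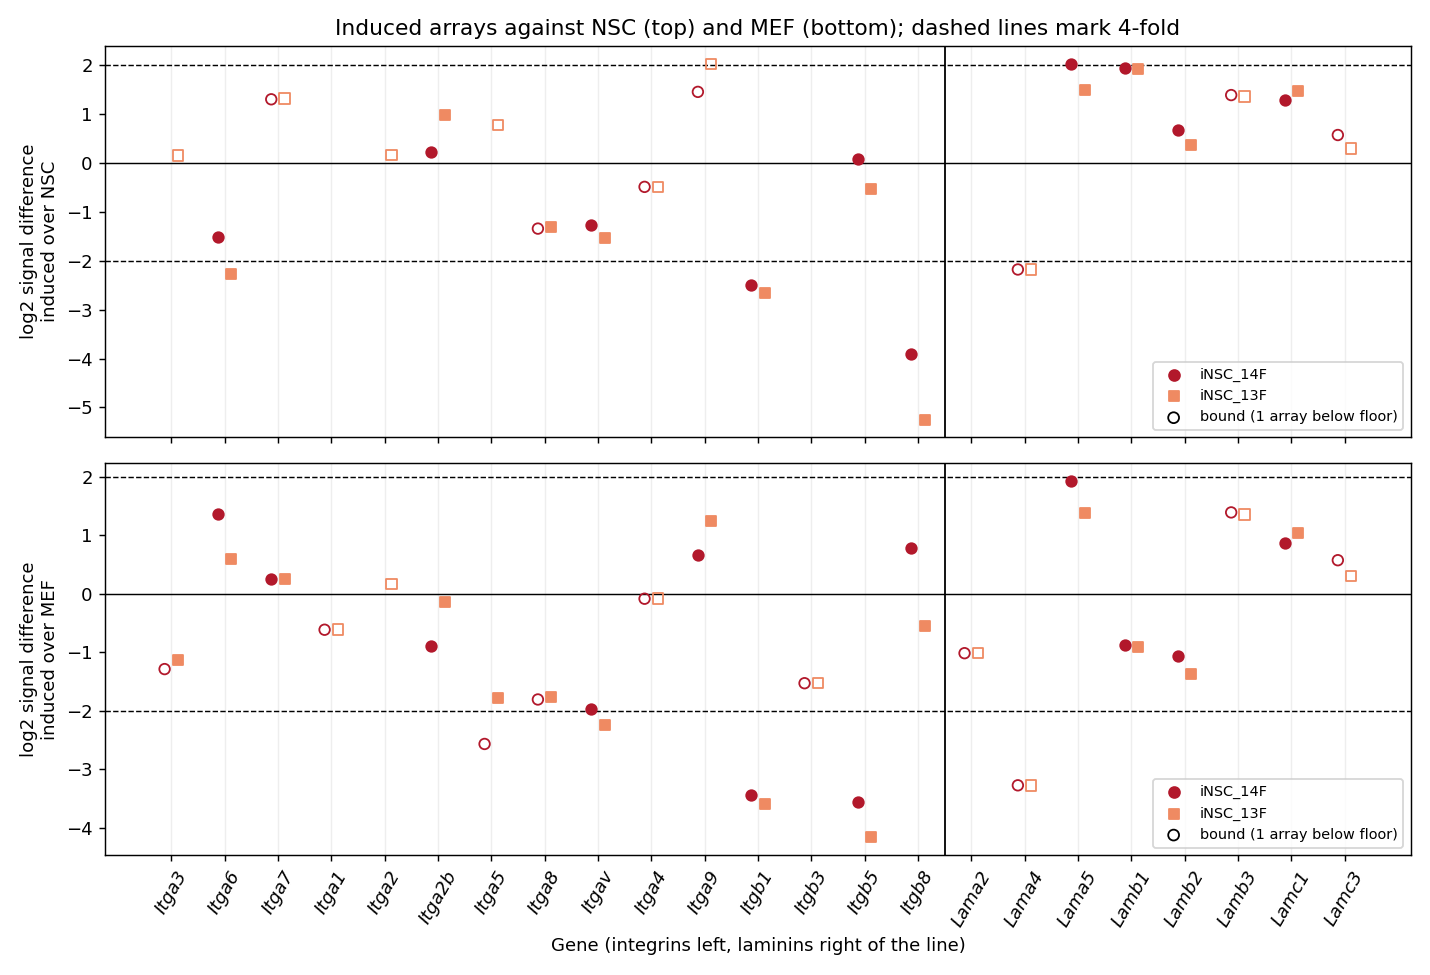
Log2 signal difference of each member on the induced arrays over NSC (top) and over MEF (bottom), with open symbols for bounds and dashed lines at 4-fold. Against NSC, Itgb8 and Itgb1 lie lowest, and 6 of the 7 measured laminin genes lie above 0 on both arrays in the signals as deposited.

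Laminin chain genes separated the induced arrays from NSC in both directions. Of 7 laminin genes measured in each pair, that is above the floor on either array, 6 were higher and 1 was lower than NSC on each induced array. The median log2 difference was 1.29 for iNSC_14F and 1.36 for iNSC_13F, against 0.33 and 0.30 for all genes. Scaled to hybridization controls, Lamb2 turned lower than NSC on both arrays and the other 6 kept their sign, though only Lama4 was then 4-fold apart. Lama2 also came above the floor on NSC under this scaling. It was then lower on both induced arrays, by a bound short of 2-fold.

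Among alpha chains, Lama5 encodes the chain of the laminins found in most adult basement membranes. Its signal was 1019 on iNSC_14F, 701 on iNSC_13F, 249 on NSC and 268 on MEF, so both induced arrays were above both others. iNSC_14F was 4.09-fold and iNSC_13F 2.81-fold above NSC, and they were 3.80-fold and 2.61-fold above MEF. A second probe set, with signals of 712, 517, 149 and 346 in the same order, gave the same directions. On it iNSC_13F was less than 2-fold above MEF. Under hybridization-control scaling the log2 differences from NSC were 1.13 in place of 2.03 and 0.42 in place of 1.49, so the call for iNSC_14F was lost. With a pseudocount and no floor the value for iNSC_14F was 1.96, just short of a call.

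Lama4, a laminin chain of vessels and mesenchyme, went the other way. Its signal was 6.68 on iNSC_14F, 22.1 on iNSC_13F, 470 on NSC and 1007 on MEF. Both induced arrays were below the floor, at least 4.53-fold lower than NSC and at least 9.69-fold lower than MEF. The second probe set of Lama4 was below the floor on all arrays. Of 9 endothelial markers, 1, 2, 0 and 2 were above the floor on iNSC_14F, iNSC_13F, NSC and MEF, with summed signals of 463, 735, 403 and 729. Those above it were Egfl7 on both induced arrays and MEF, and Kdr on iNSC_13F and MEF. The rest, Pecam1 and Cdh5 among them, were below it on all 4 arrays. The part of such cells in the Lama4 signal was not tested. Lama2, the chain of muscle and peripheral nerve laminin, had signals of 15.4 on iNSC_14F, 18.8 on iNSC_13F, 69.8 on NSC and 210 on MEF and was above the floor on MEF alone.

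Among beta chains, Lamb1 is part of the most widely made laminins. Its signal was 3435 on iNSC_14F, 3368 on iNSC_13F, 890 on NSC and 6319 on MEF. NSC was the low array, 7.10-fold below MEF, and iNSC_14F and iNSC_13F were 3.86-fold and 3.79-fold above NSC and 1.84-fold and 1.88-fold below MEF. All 3 probe sets above the floor kept these directions. A dimmer one read 698 on iNSC_14F and 2444 on MEF, and the dimmest read 135 on iNSC_13F and 289 on MEF. Both gaps were wider than 2-fold, while the other induced array stayed within 2-fold of MEF on each of these probe sets. Once scaled to hybridization controls, Lamb1 was 1.05 and 0.85 (log2) above NSC on iNSC_14F and iNSC_13F, and NSC was 1.94 below MEF and not called. With quantile normalization it was called higher than NSC on both, at 2.07 and 2.04.

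Lamb2, a chain enriched at synapses and in the kidney filter, had signals of 330 on iNSC_14F, 268 on iNSC_13F, 207 on NSC and 695 on MEF. MEF was the high array, with iNSC_14F 2.10-fold, iNSC_13F 2.59-fold and NSC 3.36-fold lower. Lamb3 is known as the beta chain of an epidermal laminin that holds the Lama3 chain. Its signal was 272 on iNSC_14F, 266 on iNSC_13F, 69.3 on NSC and 10.5 on MEF. The induced arrays alone were above the floor, higher than both NSC and MEF by at least 2.62-fold for iNSC_14F and 2.56-fold for iNSC_13F, short of a call. With scaling to hybridization controls the bounds against NSC were 1.08 and 0.87 (log2). Lama3 was below the floor on all 4 arrays. Of 7 epithelial markers, 2, 2, 1 and 5 were above the floor on iNSC_14F, iNSC_13F, NSC and MEF, with summed signals of 511, 456, 293 and 1287. Epcam and Krt5 were the ones above it on the induced arrays, at 233 and 104 on iNSC_14F and 155 and 118 on iNSC_13F. Cdh1 and Krt14 were below it on all 4 arrays, and the part of such cells in the Lamb3 signal was not tested.

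Among gamma chains, Lamc1, the gamma chain of most laminins, had signals of 1086 on iNSC_14F, 1227 on iNSC_13F, 443 on NSC and 598 on MEF. The induced arrays were higher, by 2.45-fold and 2.77-fold against NSC and by 1.82-fold and 2.05-fold against MEF for iNSC_14F and iNSC_13F. Scaled to hybridization controls, the log2 difference from NSC was 0.39 on each array, within the yardstick. A second probe set of Lamc1 had signals of 181 on iNSC_14F, 263 on iNSC_13F, 139 on NSC and 154 on MEF. It gave the same directions, but each induced array was less than 2-fold above NSC and above MEF. Lamc3, made in brain and retina, had signals of 155 on iNSC_14F, 128 on iNSC_13F, 45.5 on NSC and 86.4 on MEF, and the induced arrays alone were above the floor.

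In the signals as deposited, Lama5 and Lamb3 were the 2 members with both induced arrays at least 2-fold above both NSC and MEF. Their promoters are shown for that reason. The rule was applied to the brightest probe set, and the second probe set of Lama5 fell short of it on iNSC_13F against MEF. Under hybridization-control scaling Lama5 was 1.34-fold over NSC on iNSC_13F and the lower bound for Lamb3 was 1.82-fold, so neither met the rule. Lama5 is at chr2:180225810-180226109, minus strand, and Lamb3, for the first of its 2 starts in the table, at chr1:193301744-193302043, plus strand. Capitals mark matches to the same motifs.
Lama5: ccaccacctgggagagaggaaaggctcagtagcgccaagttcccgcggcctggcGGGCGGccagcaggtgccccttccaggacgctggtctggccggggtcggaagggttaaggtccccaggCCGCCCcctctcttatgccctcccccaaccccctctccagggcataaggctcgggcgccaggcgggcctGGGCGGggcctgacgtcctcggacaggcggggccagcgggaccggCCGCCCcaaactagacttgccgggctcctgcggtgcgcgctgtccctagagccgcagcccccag
Lamb3: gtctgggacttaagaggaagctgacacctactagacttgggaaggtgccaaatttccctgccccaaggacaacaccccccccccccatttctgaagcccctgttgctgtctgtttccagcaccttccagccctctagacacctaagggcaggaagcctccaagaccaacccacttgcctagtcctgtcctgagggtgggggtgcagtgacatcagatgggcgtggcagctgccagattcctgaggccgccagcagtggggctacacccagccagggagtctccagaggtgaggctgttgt
The Lama5 window held 4 GGGCGG matches, 24 CpG dinucleotides and 72.7% G or C. The Lamb3 window held 0 matches to the 4 motifs, 2 CpG and 59.3% G or C.

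**Figure D3:**
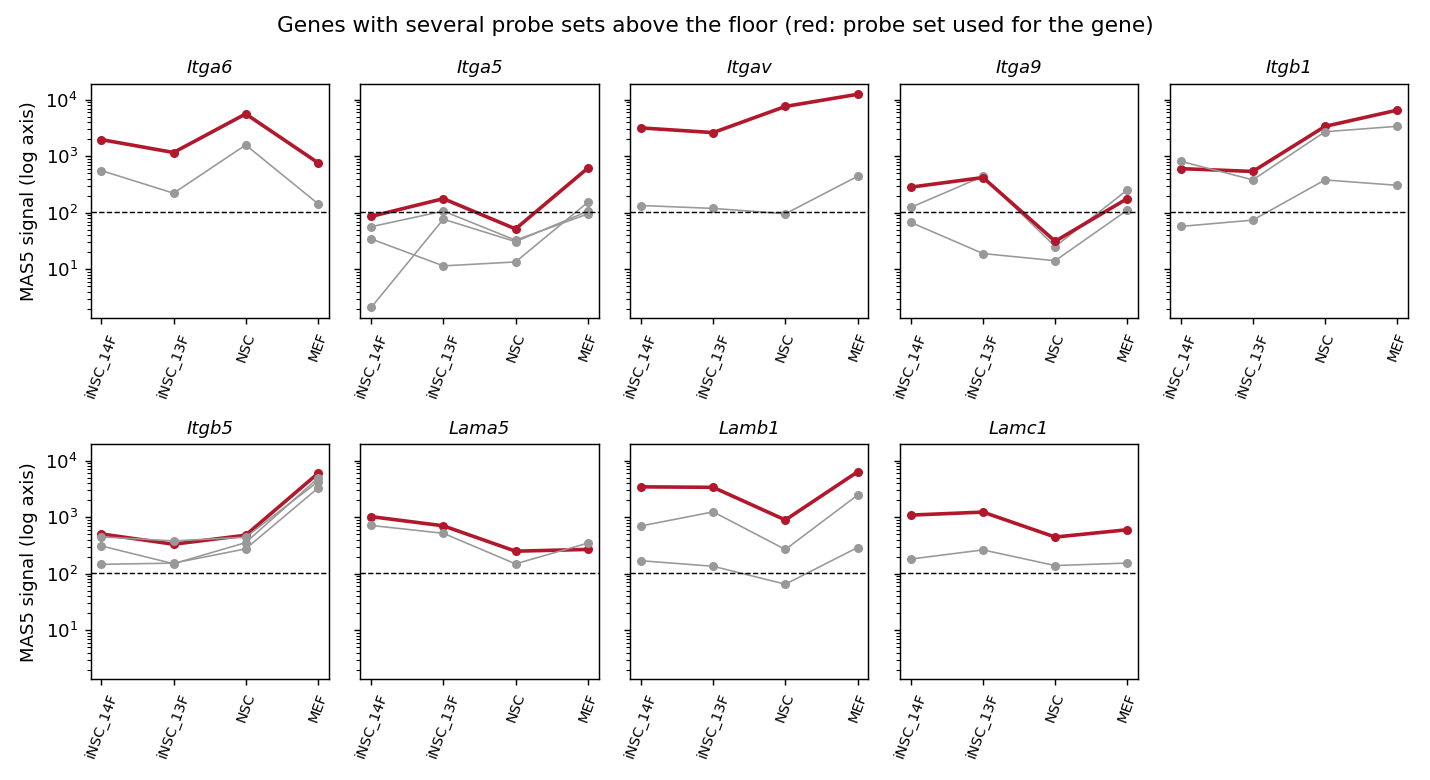
MAS5 signal (log axis) on each array for every probe set that exceeded the floor somewhere, for the 9 members that have several, with the probe set used for the gene in red and the floor dashed. Both probe sets of Itga6 keep the same direction in all 6 pairs, and all 4 of Itgb5 are highest on MEF. Those of Itgav go opposite ways between the induced arrays and NSC, where the dimmer one is under the floor on NSC.

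Counts of members called in each pair were few. Between NSC and MEF 20 members were measured, above the floor on at least 1 of the 2 arrays. Of them 2 were at least 4-fold higher in NSC (Itga6 and Itgb8), against 6.09% of all genes measured, and 3 were lower (Itga5, Itgb5 and Lamb1), against 7.21%. For iNSC_14F over MEF 0 of 22 were higher, against 4.49% of all genes, and 4 were lower, against 8.03%. These were Itga5, Itgb1, Itgb5 and Lama4. For iNSC_13F over MEF 0 of 23 were higher, against 3.66%, and 4 were lower, against 9.27%, with Itgav called in place of Itga5. The members' median log2 differences from MEF were -0.98 for NSC, -0.62 for iNSC_13F and -0.88 for iNSC_14F, while those of all genes were -0.01, 0.09 and 0.10. Scaled to hybridization controls, the members' medians were -0.22, -0.88 and -0.89, against 0.80, -0.08 and 0.09.

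Against NSC 1 of 17 members was higher in iNSC_14F (Lama5), against 1.42% of all genes, and 3 were lower (Itgb1, Itgb8 and Lama4), against 9.4%. In iNSC_13F 1 of 20 was higher (Itga9), against 1.07%, and 4 were lower, the same 3 and Itga6, against 11.3%. The median was 0.23 on each array, against 0.33 and 0.30 for all genes. This order depended on the scaling: with hybridization controls the members' medians were -0.40 in iNSC_14F and -0.32 in iNSC_13F, above the -0.48 and -0.65 of all genes. With quantile normalization they were 0.43 and 0.29, against 0.37 and 0.36. As deposited, for integrins alone it was -0.88 in iNSC_14F and -0.49 in iNSC_13F. The comparisons against NSC share 1 NSC array, and those against MEF share 1 MEF array. Between the induced arrays 0 of 18 members were called in either direction, against 0.5% of all genes higher and 0.342% lower in iNSC_14F, and the member differences, bounds at their own value, lay between -0.78 and 1.34 (log2). With counts of this size, a share near or somewhat above that of all genes does not set the members apart.

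At 2-fold, 2 members were higher in NSC than in MEF, against 19.9% of all genes, and 10 were lower, against 17.5%. In iNSC_14F 3 were higher than in MEF, against 18%, and 10 lower, against 19%, and in iNSC_13F 4 were higher, against 15.6%, and 10 lower, against 20.9%. Lower differences from MEF thus outnumbered higher ones among members on all 3 arrays. With scaling to hybridization controls 3 were higher and 6 lower in NSC, with 5198 and 1103 of all 12153 genes measured. In iNSC_14F 3 were then higher and 10 lower, with 2064 and 2208 of 11560, and in iNSC_13F 3 and 11, with 1358 and 2708 of 11545. Against NSC 6 were higher in iNSC_14F, against 16.9%, and 6 lower, against 19.3%. In iNSC_13F 6 were higher, against 14.8%, and 6 lower, against 20.8%. The higher ones were Itga7, Itga9, Lama5, Lamb1, Lamb3 and Lamc1 and the lower ones Itga6, Itga8, Itgav, Itgb1, Itgb8 and Lama4 on each array. These lists rest on the brightest probe set of each gene. The even split did not hold with scaling to hybridization controls. Then 5 were higher and 7 lower in iNSC_14F, with 279 and 3766 of all 11492 genes measured, and 2 (Itga7 and Itga9) were higher and 8 lower in iNSC_13F, with 150 and 4419 of 11585. With quantile normalization the counts were 6 and 6 in iNSC_14F and 8 and 6 in iNSC_13F. Between the induced arrays 1 member, Itgb8, was higher in iNSC_14F, against 6.03%, and 0 were lower, against 2.97%.

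Both induced arrays lay at least 2-fold below both NSC and MEF for 4 of the 23 members above the floor, Itgb1, Lama4, Itga8 and Itgav, against 6.99% of all such genes. They lay at least 2-fold above both for 2 members, Lama5 and Lamb3, against 1.93%. Once scaled to hybridization controls, the same 4 members lay below, against 8.65% of genes, and 0 lay above, against 0.224%. Of the 5 members 4-fold apart between NSC and MEF, Itgb5 was within 2-fold of NSC on both induced arrays as deposited, and -1.61 (log2) from it on iNSC_13F with scaling to hybridization controls. Itga5 was below the floor on iNSC_14F and NSC, which gives no fold between them. Itgb8 and Lamb1 were within 2-fold of MEF on both as deposited, and with scaling to hybridization controls Lamb1 was -1.09 from MEF on iNSC_13F. For Lamb1 this held on the brightest probe set. On dimmer ones iNSC_14F (698 against 2444) or iNSC_13F (135 against 289) lay more than 2-fold below MEF. As deposited, Itga6 lay between the references on iNSC_14F and within 2-fold of MEF on iNSC_13F.

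**Figure D4:**
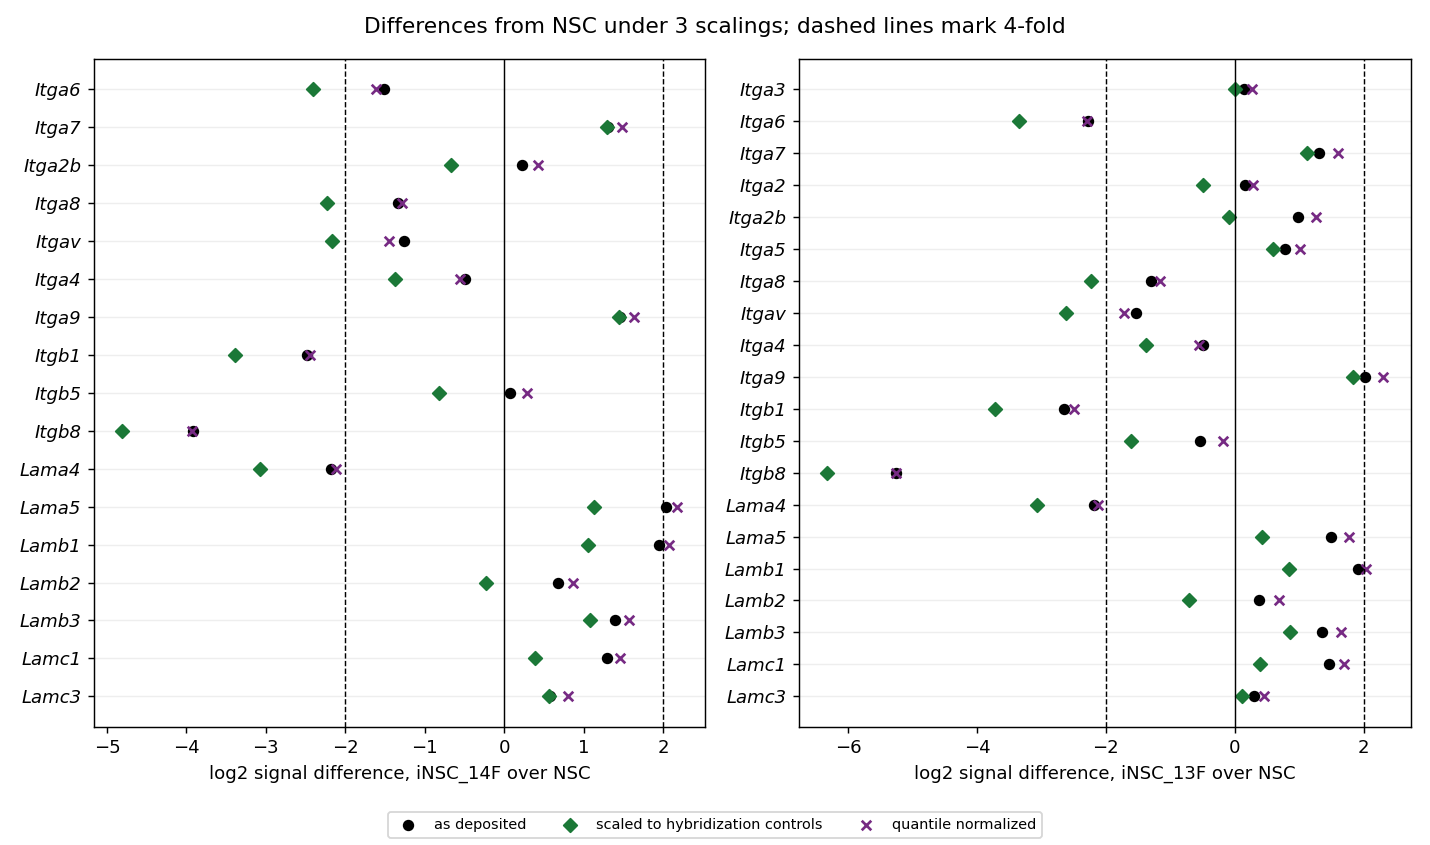
Log2 signal difference of members from NSC on iNSC_14F (left) and iNSC_13F (right), as deposited, scaled to hybridization controls and quantile normalized, with dashed lines at 4-fold. Scaling to hybridization controls moves points to the left, and Itgb8, Itgb1 and Lama4 stay past 4-fold under all 3 scalings.

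Genes that work with integrins were counted from 3 lists. Among 29 measured adaptor and kinase genes, NSC exceeded MEF at least 4-fold for 2 and lay below it for 12, with 6.09% and 7.21% of all genes, and the list's median was -1.68 (log2), against -0.01 for all genes. Scaled to hybridization controls, 3 were higher and 8 lower, with 16.5% and 4.39% of all genes, and the median was -0.83, against 0.80. As deposited, the counts against MEF were 0 higher and 8 lower in iNSC_14F and in iNSC_13F. Of all genes, 4.49% were higher and 8.03% lower in iNSC_14F, and 3.66% and 9.27% in iNSC_13F. The medians of the list were -1.54 and -1.44, against 0.10 and 0.09. Under hybridization-control scaling 11 were lower in iNSC_13F, with 10.4% of all genes. Actn1, the actin crosslinker of focal adhesions, was lower than in MEF by 20.7-fold in iNSC_14F, 16.2-fold in iNSC_13F and 71.9-fold in NSC. Against NSC 1 of 26 was higher and 3 were lower on each induced array, with 1.42% and 9.4% of all genes in iNSC_14F and 1.07% and 11.3% in iNSC_13F. The list's medians were 0.74 and 0.90, against 0.33 and 0.30. With scaling to hybridization controls 0 of 27 were higher and 4 lower on each, with 17.1% of all genes lower in iNSC_14F and 20.3% in iNSC_13F. The medians were then -0.07 and -0.13, against -0.48 and -0.65. As deposited, the lower ones were Lims1, Crk and Itgb3bp on both arrays, and Fermt2 joined them with scaling to hybridization controls. Lims1 encodes PINCH, which joins the integrin-linked kinase, and was 7.20-fold lower in iNSC_14F and 13.1-fold lower in iNSC_13F. Crk is a signalling adaptor, and Itgb3bp, in spite of its name, is also known as a centromere protein.

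Of the basement membrane proteins and the laminin receptors other than integrins, 8 of 30 measured genes were at least 4-fold lower and 2 higher in NSC than in MEF, with 7.21% and 6.09% of all genes, and the median was -0.61 (log2), against -0.01. Scaled to hybridization controls, 5 were lower and 5 higher, with 4.39% and 16.5% of all genes, and the median was 0.22, against 0.80. Nid1, the nidogen that links laminin to type IV collagen, had signals of 338 on iNSC_14F, 207 on iNSC_13F, 114 on NSC and 10886 on MEF. Against NSC 2 of 29 were higher and 1 lower in iNSC_14F, and 3 higher and 2 lower in iNSC_13F, with 1.42% and 9.4% of all genes and 1.07% and 11.3%, and with medians of 1.01 and 0.88, against 0.33 and 0.30. Scaled to hybridization controls, 0 were higher and 3 lower on each, with 17.1% of all genes lower in iNSC_14F and 20.3% in iNSC_13F. The medians were then 0.11 and -0.19, against -0.48 and -0.65. Col4a1 and Col4a2, the most common type IV collagen chains, were 7.16-fold and 5.34-fold higher than NSC in iNSC_14F and 6.41-fold and 5.15-fold higher in iNSC_13F. Under hybridization-control scaling none of these was called, at 1.94 and 1.52 (log2) in iNSC_14F and 1.60 and 1.29 in iNSC_13F. Dmd, the gene of dystrophin, which ties the laminin receptor dystroglycan to actin, was 6.34-fold and 11.4-fold lower on the same arrays. Ntn1, a secreted protein with a laminin-like domain, was 13.6-fold higher in iNSC_14F and 16.3-fold higher in iNSC_13F than in MEF.

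Of 24 measured integrin ligands other than laminins, 16 were at least 4-fold lower and 0 higher than in MEF for each of iNSC_14F, iNSC_13F and NSC. Of all genes, 8.03%, 9.27% and 7.21% were lower and 4.49%, 3.66% and 6.09% higher. The medians of the list were -3.98, -4.07 and -4.69, against 0.10, 0.09 and -0.01. Scaled to hybridization controls, 13 were lower in NSC and 18 in iNSC_13F, with 4.39% and 10.4% of all genes. The list holds fibroblast matrix genes. Fn1, fibronectin, had signals of 3534 on iNSC_14F, 1954 on iNSC_13F, 255 on NSC and 39881 on MEF. It was 13.9-fold higher in iNSC_14F and 7.68-fold higher in iNSC_13F than in NSC. Once scaled to hybridization controls, the log2 differences were 2.90 and 1.87, and the call for iNSC_13F was lost. Between the induced arrays 4 of 19 ligand genes were at least 4-fold lower in iNSC_14F, where none of the integrins or laminins was called, against 0.342% of all genes. These were Ccn2, a matricellular ligand, at least 10.3-fold lower, Emilin1, at least 4.96-fold, Thbs1, thrombospondin, at least 4.86-fold, and Ccn1, 4.83-fold.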

How the data were processed

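Biotin-labelled total RNA was hybridised to Affymetrix mouse arrays, 1 array for each of 4 groups, per the labels' protocols. The deposited values are linear array intensities, 1 per probe set. Per the submitters' processing notes they were made with MAS5, which summarises arrays singly. For its version and settings, no source used here has an entry. The 2% trimmed mean was 500 on each array, so no scaling was added. Precision is limited by the number of arrays.

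Of 45101 probe sets, 64 were controls, and 34945 were named for 1 gene through the platform annotation, 34741 of them updated by gene ID with a table of GRCm38.p6. A gene took the probe set with the highest mean log2 signal over the arrays after values under the floor were set to it. The written rule did not say whether flooring came first, and this was settled after seeing the data. All members could be named, and of 3 other lists with 109 genes the 4 widest differences per list and pair. Because no group has replicates, no test was run. The size rule was tested on simulated data. Members, lists and rules were chosen with earlier results of these data known. Alternatives covered scaling, the floor, a pseudocount of 16, the probe set of a gene and the size of a call. Promoter windows came from RefSeq, and 22 members had 1. Python 3.11.15, numpy 2.4.6 and pandas 2.3.3 were used.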

Additional observations from a re-analysis of the deposited data

How the results depend on the processing

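The 12 counts of called members were recomputed under 10 alternatives, and 83 of 120 values were within 1.5 times the reported count. Against NSC, the count of members higher was 2 on each induced array with quantile normalization and 0 on each with scaling to hybridization controls. It was 2 in iNSC_13F and 3 in iNSC_14F with the floor at the 75th percentile, and 2 on each with no floor and a pseudocount of 16. The shares of all genes in these settings, in turn, were 1.71%, 0.285%, 1.39% and 3.19% in iNSC_13F. In iNSC_14F they were 1.76%, 0.357%, 1.88% and 2.06%. In iNSC_13F the count of members was also 0 with the floor at the 99th percentile, against 0.847% of all genes. It was 0 where both arrays had to exceed the floor, against 0.894%, and 2 without probe sets marked _s_at or _x_at, against 1.05%. The count lower than NSC in iNSC_14F was 6 with scaling to hybridization controls, against 17.1% of all genes. With the median of all probe sets it was 1 there, against 6.55%, and 2 in iNSC_13F, against 7.56%. Against MEF, the count higher in iNSC_14F was 1 with quantile normalization, 1 with the lower floor and 1 with no floor, against 5.11%, 4.84% and 4.48%. In iNSC_13F it was 1 with the lower floor and 2 with no floor, against 4.16% and 4.39%. The count lower than MEF was 7 in iNSC_14F and 6 in NSC with the lower floor, against 8.61% and 7.79%. With no floor it was 8 in iNSC_14F, 7 in iNSC_13F and 9 in NSC, against 8.16%, 8.54% and 8.01%. In iNSC_14F it was 2 where both arrays had to exceed the floor, against 5.74%. With the median of all probe sets it was 1 on each induced array, against 6.2% in iNSC_14F and 6.81% in iNSC_13F. With no floor 2 members were lower in iNSC_14F than in iNSC_13F, against 1.81%. At 2-fold, 10 members were lower than MEF in each of iNSC_14F, iNSC_13F and NSC, and 3 and 4 were higher in iNSC_14F and iNSC_13F. Against NSC 6 were higher on each induced array and 6 lower in iNSC_14F, and 1 was higher in iNSC_14F than in iNSC_13F. Of the 22 called differences of single members, 0 changed sign, and 191 of 210 recomputed values stayed called. Of the 19 that did not, 8 came from the median of all probe sets, which takes in dim ones. Part of this agreement was fixed in advance. A call cannot be lost at 2-fold (22 of 22), with the lower floor (22 of 22) or where both arrays had to exceed the floor (15 of 15). Differences not measured in a setting were left out, so 15 were compared in that last setting and 19 with the median. Choosing probe sets before flooring, an alternative added after seeing the data, changed that of 1 member, Itgb3, and moved no count of called members. What caused the other shifts was not tested. Signal over background limits the genes near the floor, for which bounds alone are given. No paired analysis was possible because each group has 1 array.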
